A study of Mus musculus with 16 samples.

Results

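Cortex of tau transgenic mice without Trem2 was set against cortex of tau transgenic mice with 1 Trem2 allele. All libraries labelled P301S+ TREM2-/- (the knockouts, 4 mice) and all labelled P301S+ TREM2+/- (the heterozygotes, 4 mice) were taken, which is 8 of the 16 libraries of the series. All 8 mice carried P301S, a disease mutation of tau, which is a protein that binds microtubules, so the comparison asks what the loss of the remaining Trem2 allele changes in cortex with mutant tau. Each genotype had 2 females and 2 males aged 8 to 9 months, on a strain labelled C57BL/6; C3. The labels name neither the promoter that drives the transgene nor the part of Trem2 that was deleted, and they give no litter, batch or preparation day, so a batch that followed genotype could not be told apart from it. The replicate numbers follow accession order and mark separate mice. The remaining libraries of the series, 4 P301S+ TREM2+/+ and 4 non-transgenic TREM2+/+ mice, served only to place single values.

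Trem2 is a lipid-binding receptor on microglia, the resident macrophages of the brain. It has no signalling tail of its own and passes its signal through the adapter Tyrobp to the kinase Syk, and phosphatases such as Inpp5d dampen the signal. In mouse models of brain disease microglia need Trem2 to move from a homeostatic state, marked by genes such as P2ry12 and Tmem119, to a disease-associated state marked by Apoe, Clec7a and Cst7.

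Read depth was 5.94 ± 2.68 M reads (M, 1e+06) in knockouts and 9.29 ± 1.96 M in heterozygotes (mean ± SD, n = 4 each), a difference of -3.36 M (two-sided exact permutation p = 0.0857). Knockout replicate 2 was the shallowest library with 2.55 M reads. Xist and Ddx3y, transcribed from the X and the Y chromosome, placed every library with its labelled sex. Heterozygote replicate 3, a male, had more Xist than the other males of the 8 libraries, which had at most 0.0248 RPKM. Its Xist was still far below that of the females, which had at least 3.25 RPKM. The source of Xist reads in that library was not tested. Markers of cortical neurons, astrocytes, oligodendrocytes and microglia were measured in all 8 libraries, the haemoglobin genes Hbb-bs and Hbb-b1 were listed at 0 in all, and the T cell receptor subunit Cd3e was at most 0.382 RPKM. A list of blood genes still summed to 407, 577, 418 and 323 RPKM in knockouts and 106, 192, 279 and 137 RPKM in heterozygotes, without overlap. Only 2 of its genes lay above the filter, 1 higher and 1 lower in knockouts. The part of blood RNA in other differences was not tested. The first principal component of the 8 libraries held 27.3% of the variance and set heterozygote replicate 4 at 31.7 and knockout replicate 1 at -21.2. The second held 21.7%, with heterozygote replicate 1 at 27.9 and knockout replicate 2 at -21.5.

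Trem2 itself was the first check of the labels. It had 1.44, 1.71, 1.46 and 3.75 RPKM (reads scaled to gene length in kilobases and to a depth of 1e+06 reads) in knockouts, against 4.50, 8.37, 25.2 and 13.6 RPKM in heterozygotes. The groups did not overlap, and knockout replicate 4 stood nearest to the heterozygotes. The difference was -2.0 on the log2(RPKM + 1) scale (SE 0.31), with a limma adjusted p of 0.133 over all genes, so the knocked-out gene did not pass the test used for every gene. It did pass with array weights (adjusted p = 0.0283), with voom and quality weights (0.0234) and without heterozygote replicate 3 (0.0292). It passed in no other setting run. Limma's adjusted p was 0.0502 with voom alone, and from 0.0704 to 0.370 with any other single mouse left out. It was 0.154 with read depth as a covariate and 0.9998 with all 16 libraries. Reads of Trem2 were not 0 in knockouts, with 9, 5, 15 and 29 reads against 54, 93, 185 and 165 reads in heterozygotes. The reads come from the 3' ends of transcripts and the deleted part is not given. Reads outside that part would still be counted, but where the knockout reads came from was not tested.

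Tyrobp, the adapter that Trem2 signals through, had 29.7, 22.15, 44.3 and 72.3 RPKM in knockouts and 24.1, 46.3, 118 and 107 RPKM in heterozygotes. The groups overlapped, and the males were highest within each genotype. Its difference was -0.67 (SE 0.24, limma adjusted p = 0.348). Set against Tyrobp in the same library, Trem2 gave an RPKM ratio of 0.0526 ± 0.0183 in knockouts and 0.177 ± 0.0360 in heterozygotes (mean ± SD, n = 4 each). The ratios lay between 0.0329 and 0.0772 in knockouts and between 0.128 and 0.213 in heterozygotes, without overlap. The log2 ratio of reads differed by -1.79 (two-sided exact permutation p = 0.0286, the smallest that 4 against 4 allows). In bulk cortex fewer microglia and less RNA per microglial cell cannot be told apart.

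**Figure D1:**
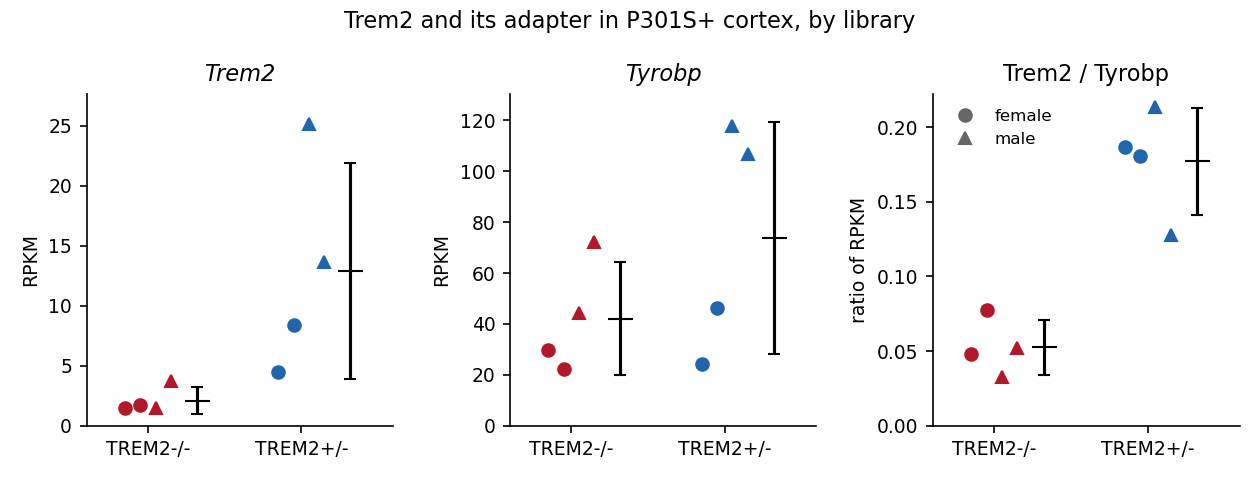
RPKM of Trem2, of Tyrobp and their ratio (vertical axes) in each P301S+ TREM2-/- library on the left and each P301S+ TREM2+/- library on the right. Circles are females, triangles males, replicates run 1 to 4 from left to right, and the bar gives the mean ± SD of 4 mice. Trem2 reached 3.75 RPKM at most in knockouts and 4.50 RPKM at least in heterozygotes, while Tyrobp overlapped.

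Over all genes the answer was small at the threshold used. Of 11989 genes with a mean of at least 1 RPKM over the 8 libraries, 1 passed limma's test at an adjusted p of 0.05, which is 0.00834% of the genes tested. It was Flywch1, which encodes a zinc finger protein of the FLYWCH type, and it fell. At an unadjusted p under 0.05 there were 1321 genes (11.0%), of which 703 were higher in knockouts (5.86%) and 618 lower (5.15%). The knockouts lay wholly below the heterozygotes for 283 genes (2.36%) and wholly above for 360. The median log2 difference over all genes was -0.02, and 55.3% of genes were lower in knockouts.

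Flywch1 had 9.84, 7.96, 9.81 and 9.27 RPKM in knockouts, against 38.4, 38.2, 27.4 and 22.4 RPKM in heterozygotes. The groups were far apart relative to their spread, and the heterozygous females were above the heterozygous males. The mean was 9.22 ± 0.879 RPKM in knockouts and 31.6 ± 8.03 RPKM in heterozygotes, 3.43 times higher in heterozygotes, and the log2 difference was -1.64 (SE 0.16, 95% interval -2.0 to -1.29, limma adjusted p = 0.0202). Flywch1 lies on chromosome 17 at 23752793 to 23771602 on the minus strand, and Trem2 on the same chromosome at 48346401 to 48354147 on the plus strand (GRCm38). Of 103 genes tested within 10 Mb of it, 5 were higher and 7 lower at an unadjusted p under 0.05, or 11.7%, beside 11.0% of all genes. Within 25 Mb, which takes in Flywch1, 12 of 387 were higher and 26 lower, or 9.82%. In the other genotypes Flywch1 had 31.4, 33.3, 23.9 and 23.4 RPKM in P301S+ TREM2+/+ mice, like the heterozygotes, and 12.3, 14.2, 47.4 and 9.26 RPKM in non-transgenic mice, of which 3 were near the knockouts. The call ended when any knockout or either heterozygous female was left out (adjusted p from 0.0520 to 0.164), with read depth as a covariate (log2 difference -1.42, adjusted p = 0.154), and with all 16 libraries in the fit (adjusted p = 0.9998).

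**Figure D2:**
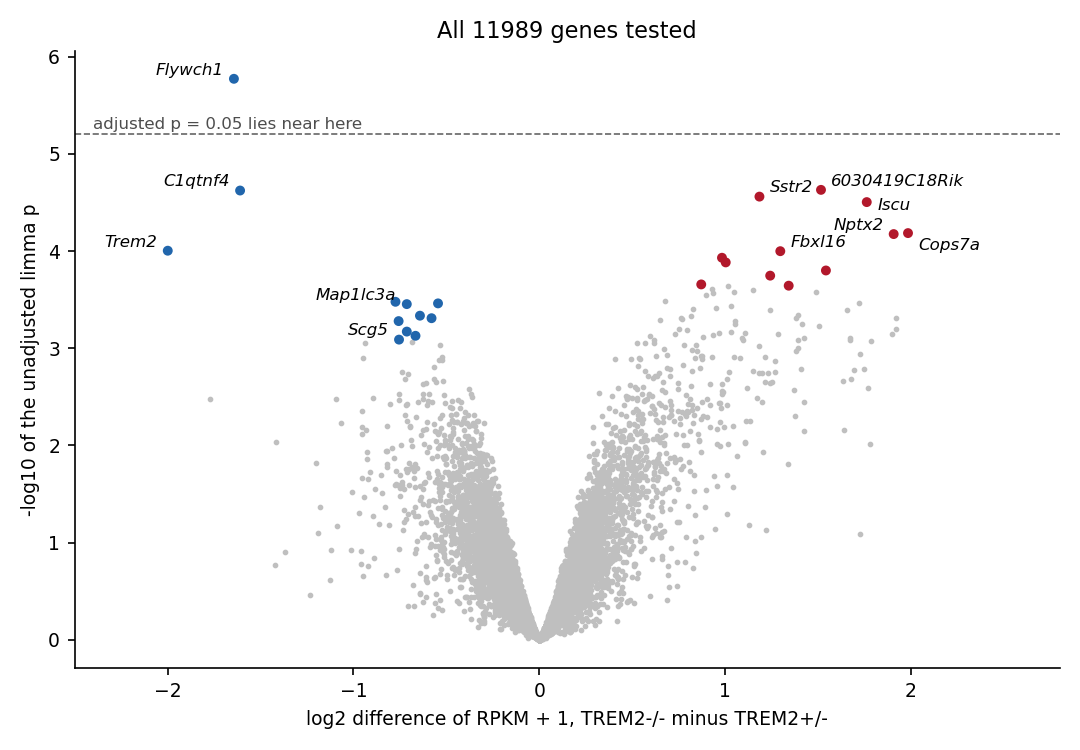
The log2 difference of RPKM + 1, TREM2-/- minus TREM2+/- (horizontal axis), and -log10 of limma's unadjusted p (vertical axis) for each of the 11989 genes tested. Coloured points are the 12 genes of smallest p in each direction. Only Flywch1 lies above the dashed line, and the genes of largest difference on the right reach 1.98 at Cops7a.

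Among the genes lower in knockouts, C1qtnf4, a secreted protein with C1q- and TNF-like domains, followed Flywch1. It had 9.92, 7.18, 12.7 and 10.4 RPKM in knockouts and 34.0, 46.0, 25.5 and 26.9 RPKM in heterozygotes (log2 difference -1.61, SE 0.21, limma adjusted p = 0.0751). As with Flywch1, the groups did not overlap and the heterozygous females were highest. The rest of the 12 genes of smallest p in this direction besides Trem2 were Hspb3, a small heat shock protein (-0.77), BC029214 (-0.55), Map1lc3a, the LC3 protein of autophagosome membranes (-0.71), Selm, a selenoprotein (-0.64), Dazap1, an RNA-binding protein (-0.58), Ppp1r14b, an inhibitor of protein phosphatase 1 (-0.76), Dcxr, a carbonyl reductase (-0.71), Hdhd3, a hydrolase-like protein (-0.67), and Scg5, the 7B2 chaperone of a prohormone convertase (-0.75), all with a limma adjusted p of 0.143. In 10 of the 12 the groups did not overlap, beside 2.36% of all genes with the knockouts wholly below. That count was partly set by choosing genes by smallest p in this comparison. Map1lc3a, for example, had 178, 162, 199 and 220 RPKM in knockouts and 345, 316, 330 and 256 RPKM in heterozygotes.

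The 12 genes of smallest p higher in knockouts had larger differences. Iscu, a scaffold for iron-sulfur clusters in mitochondria, had 23.3, 38.4, 32.6 and 25.9 RPKM in knockouts and 6.45, 5.35, 14.2 and 8.10 RPKM in heterozygotes (1.76, SE 0.24, adjusted p = 0.0751). Nptx2, a secreted pentraxin that binds glutamate receptors at synapses, had 31.6, 27.2, 43.9 and 16.3 RPKM in knockouts and 5.09, 5.70, 10.4 and 6.71 RPKM in heterozygotes (1.91, SE 0.28, limma adjusted p = 0.114). Sstr2, a receptor for the inhibitory peptide somatostatin, had 12.8, 14.7, 13.8 and 10.3 RPKM in knockouts and 3.93, 5.25, 6.43 and 4.93 RPKM in heterozygotes (1.18, SE 0.16, adjusted p = 0.0751). In none of the 12 did the groups overlap, beside 360 of all 11989 genes with the knockouts wholly above. This lack of overlap was partly set by choosing genes by smallest p in this comparison. In all 12 heterozygote replicate 3 was the highest heterozygote. The differences were 1.52 for 6030419C18Rik (listed as Insyn1 in RefSeq), 1.98 for the COP9 signalosome subunit Cops7a, 1.30 for the F-box protein Fbxl16, 0.98 for the ubiquitin protease Usp19, 1.0 for Amd1, an enzyme of polyamine synthesis, 1.24 for the glutathione transferase Mgst3, 0.87 for the palmitoyltransferase Zdhhc13 and 1.34 for Gtl3 (Cfap20 in RefSeq), with limma adjusted p from 0.0751 to 0.143. Mouse Amd1 has near-identical copies elsewhere in the genome, so its level is uncertain.

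These 12 genes also varied within the other genotypes. Mgst3 had 115, 69.1, 114 and 63.9 RPKM in knockouts and 35.0, 34.1, 44.2 and 33.1 RPKM in heterozygotes, but 2.27, 1.94, 66.7 and 66.6 RPKM in mice labelled P301S+ TREM2+/+ and 113, 88.2, 0.602 and 82.2 RPKM in non-transgenic mice. Both P301S+ TREM2+/+ females and non-transgenic replicate 3 were therefore far below every heterozygote. The median of the 12 genes, as log2(RPKM + 1) relative to each gene's mean over 16 libraries, was 0.86, 0.97, 1.08 and 0.69 in knockouts, -0.79, -0.40, 0.04 and -0.66 in heterozygotes, -1.75, -1.82, 0.22 and 0.77 in mice labelled P301S+ TREM2+/+ and 0.86, 0.79, -1.56 and 0.73 in non-transgenic mice. The lowest of the 4 P301S+ TREM2+/+ libraries was a female for all 12 genes, and non-transgenic replicate 3 was the lowest of its group for 11 of 12. The same median over the 12 genes lower in knockouts was -0.67, -0.65, -0.41 and -0.37 in knockouts and 0.12, 0.31, 0.24 and 0.23 in heterozygotes. It was 0.40, 0.64, 0.35 and 0.27 in P301S+ TREM2+/+ mice and -0.01, -0.33, 1.19 and -0.37 in non-transgenic mice. Non-transgenic replicate 3 was the highest of its group for 8 of these 12 genes and the lowest for 3. Whatever sets either group of genes apart within a genotype was not tested for its part in the difference between knockouts and heterozygotes.

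**Figure D3:**
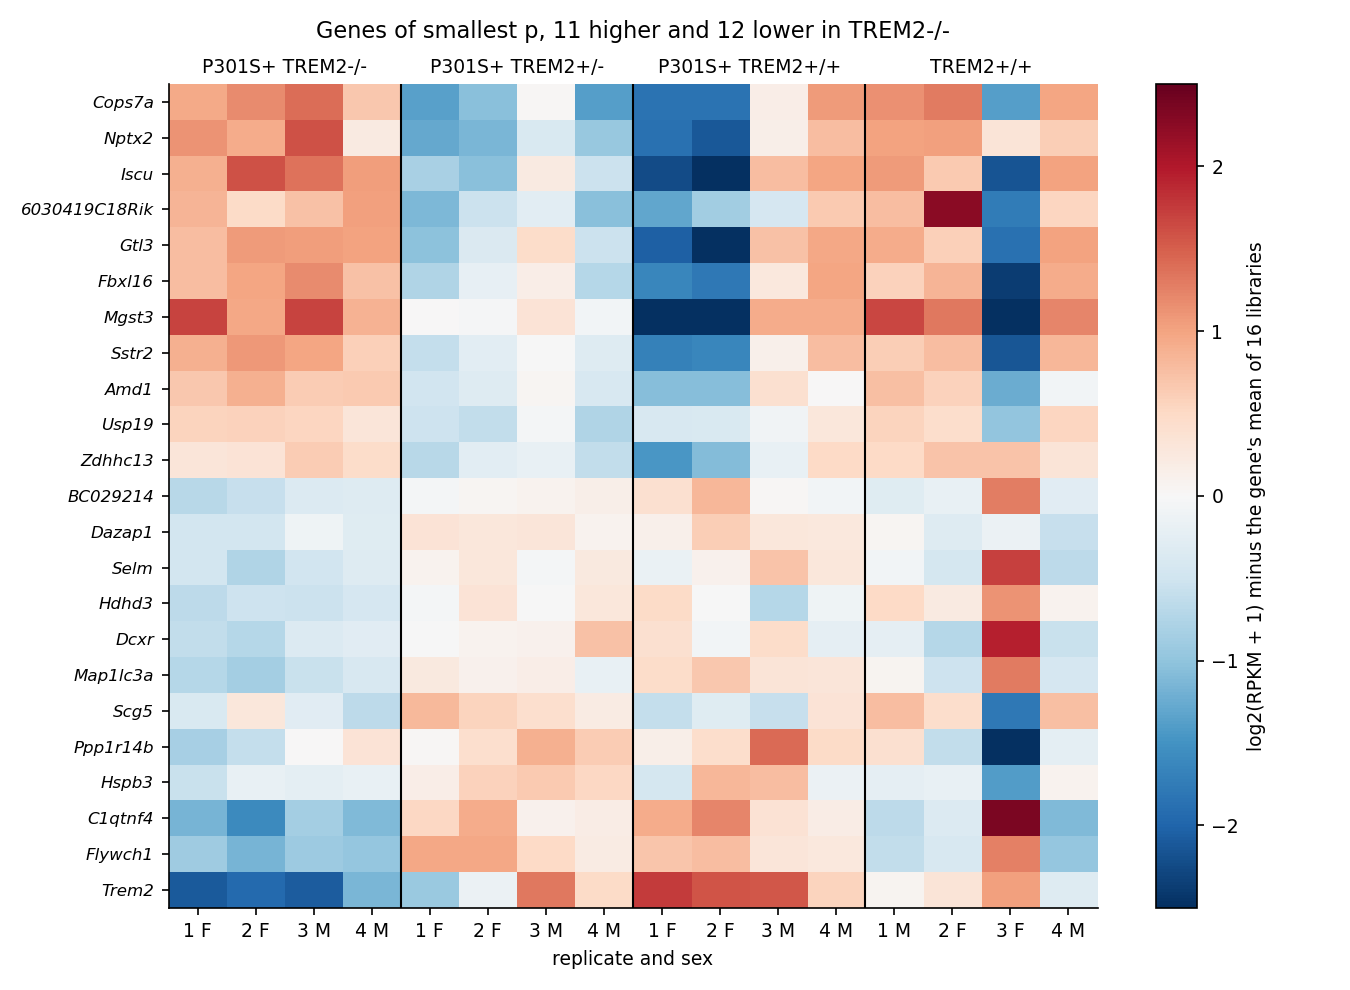
Log2(RPKM + 1) minus the gene's mean over 16 libraries (colour) for 23 of the 24 genes of smallest p (rows, 11 higher and 12 lower in knockouts), with P301S+ TREM2-/- libraries at the left, then P301S+ TREM2+/-, P301S+ TREM2+/+ and non-transgenic TREM2+/+. The upper 11 genes, chosen by p in this comparison, are higher in all 4 knockouts than in the heterozygotes. The lowest medians over the 12 higher genes are those of P301S+ TREM2+/+ replicates 1 and 2 and non-transgenic replicate 3 (-1.75, -1.82 and -1.56), although Zdhhc13 is high in the last.

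Microglial genes were mostly lower in knockouts, and no member of any list below passed the test. Of 27 disease-associated microglia genes measured above the filter, 23 were lower in knockouts and 4 higher, with a median log2 difference of -0.48, beside 55.3% lower and a median of -0.02 over all genes. At an unadjusted p under 0.05, 12 were lower (44.4%, beside 5.15% of all genes) and 1 was higher. Apoe, the main lipid carrier of the brain, had 420, 541, 509 and 781 RPKM in knockouts and 602, 769, 1204 and 1161 RPKM in heterozygotes (-0.71, SE 0.17, limma adjusted p = 0.181). The male heterozygotes stood above all other libraries, and the highest knockout exceeded the female heterozygotes. The lysosomal protease Ctsd was at -0.72 (SE 0.17), the receptor kinase Axl, which binds dying cells through bridging proteins, at -0.52, and the pyrophosphate transporter Ank at 0.34 (adjusted p from 0.189 to 0.231).

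Clec7a, Cst7 and Lyz2 were picked out after their values were seen, as widely used markers of that state. Clec7a, a receptor for fungal sugars, had 0.161, 0.172, 0.342 and 1.24 RPKM in knockouts and 0.0419, 1.04, 10.5 and 7.39 RPKM in heterozygotes (-1.41, SE 0.43, limma adjusted p = 0.282). Cst7, a protease inhibitor, had 0.186, 0.397, 2.15 and 9.47 RPKM in knockouts and 0.387, 2.72, 18.3 and 14.4 RPKM in heterozygotes (-1.20, SE 0.41, adjusted p = 0.324). In both genes the heterozygous males were highest. Heterozygote replicate 1, a female, was below every knockout for Clec7a and among the knockouts for Cst7. Lyz2, the macrophage lysozyme, was at -0.95 (SE 0.27, limma adjusted p = 0.247).

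Homeostatic microglia genes had a smaller median of -0.18, with 17 of 22 lower and 2 of them at an unadjusted p under 0.05 (9.09%, near the 5.15% of all genes). These were the fractalkine receptor Cx3cr1 (-0.46, SE 0.17) and the protease inhibitor Cst3 (-0.23, SE 0.10). P2ry12, a purine receptor of resting microglia chosen after its value was seen, was at 0.11 (SE 0.14, limma adjusted p = 0.817), and Tmem119, a membrane protein particular to microglia in brain, at -0.27 (SE 0.15, adjusted p = 0.548). Of 25 pan-microglia and macrophage genes 23 were lower (median -0.32), 5 with an unadjusted p under 0.05 (20%), among them the lysosomal protein Laptm5 (-0.74), the Fc receptor chain Fcer1g (-0.72), the oxidase subunit Cyba (-0.74) and the endotoxin co-receptor Cd14 (-0.47). The partners of Trem2 had 11 of 14 lower (median -0.34) and 6 with an unadjusted p under 0.05 (42.9%). Besides Tyrobp these included the phosphatase Inpp5d (-0.42), the membrane protein Ms4a6d (-0.69) and the kinase Lyn (-0.38). All 4 measured genes of border and blood-derived macrophages were lower (median -0.41), none at an unadjusted p under 0.05.

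The summed level of the disease-associated list was 2723, 2685, 3253 and 3427 RPKM in knockouts and 2924, 3193, 4450 and 4087 RPKM in heterozygotes. Males were above females within both genotypes, and the male heterozygotes were above all knockouts. Summed pan-microglia genes were 204, 249, 322 and 455 RPKM in knockouts and 182, 339, 834 and 520 RPKM in heterozygotes, with the lowest value of all in heterozygote replicate 1. Leaving out heterozygote replicate 3 took the median of the disease-associated list to -0.38 and that of the pan-microglia list to -0.21.

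Complement genes were lower in knockouts in 9 of 9 cases, with a median of -0.51 and 6 at an unadjusted p under 0.05 (66.7%, beside 5.15% of all genes). C1qb, a chain of the initiating complex C1q, had 12.4, 14.4, 18 and 37.1 RPKM in knockouts and 15.8, 27.4, 80.9 and 49.6 RPKM in heterozygotes (-0.93, SE 0.27, limma adjusted p = 0.255). Its sister chain C1qc was at -0.55, the integrin chain Itgb2, part of a complement receptor, at -0.43 and the complement factor C4b at -0.96 (SE 0.35, adjusted p = 0.361). C4b has a near-identical neighbour in the mouse genome and is uncertain in level. Antigen presentation had 13 of 16 lower (median -0.26), with Tapbp, which loads peptides on class I molecules, at -0.30, the immunoproteasome subunit Psmb8 at -0.57 and the class II chain H2-Aa at -0.97 (SE 0.43). Genes of the H2 family resemble each other and their reads may be split between them. Inflammatory cytokine and NF-kB genes had 11 of 12 lower (median -0.19) and none at an unadjusted p under 0.05.

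Interferon response genes were the longest of the immune lists, with 28 of 30 lower, a median of -0.40 and 5 at an unadjusted p under 0.05 (16.7%, beside 5.15% of all genes). The deubiquitinase-like Usp18, which curbs interferon signalling, had 0.103, 0.221, 0.817 and 1.09 RPKM in knockouts and 0.700, 0.466, 3.52 and 2.30 RPKM in heterozygotes (-0.72, SE 0.19, limma adjusted p = 0.215). Ifitm3, an antiviral membrane protein, had 15.5, 11.5, 19.2 and 24.2 RPKM in knockouts and 12.4, 24.5, 66.4 and 43.5 RPKM in heterozygotes (-0.82, SE 0.26, adjusted p = 0.303). In both genes the male heterozygotes were above every other library, and the groups overlapped through the female heterozygotes. For Usp18 these lay below the male knockouts but above the female knockouts, which had 1 read each. Ifi35 was at -0.49 and the oligoadenylate synthetase-like Oasl2 at -0.78.

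One heterozygote carried much of the interferon list. Its summed level was 142, 156, 204 and 179 RPKM in knockouts and 124, 165, 520 and 265 RPKM in heterozygotes, so replicate 3 held nearly as much as the other heterozygotes together. Ifit3, an antiviral RNA-binding protein, reached 50.3 RPKM in that library, Cxcl10, a chemokine for T cells, 19.3 RPKM, and Rsad2, the antiviral enzyme viperin, 10.6 RPKM. Their highest values elsewhere among the 8 libraries were 21.6 RPKM for Ifit3, 5.26 RPKM for Cxcl10 and 2.87 RPKM for Rsad2. Reads of Ifit3 cannot be told apart from those of its near-identical copy Ifit3b. Ccl5, a chemokine made by T cells and microglia, had 0.344, 2.95, 1.89 and 2.51 RPKM in knockouts and 1.08, 1.17, 21.4 and 2.49 RPKM in heterozygotes. The T and B cell list summed to 24.8 RPKM in that library and to 6.17 RPKM at most in the other heterozygotes, but Ccl5 is itself a member. Without it the list summed to 3.39 RPKM in that library, within the 2.31 to 3.68 RPKM of the other heterozygotes, and Cd3e was at 0.217 RPKM there. Without heterozygote replicate 3 the median of the interferon list was -0.12, and its part in the list's counts was not otherwise tested.

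Promoters of interferon genes are printed to show an element that part of the list holds. The core of the interferon-stimulated response element was searched on both strands as GAAA, any 2 bases and GAAA, from 250 bases before to 50 bases after each start site in RefSeq (GRCm38.p6). It was found in 13 of the 25 list genes with a promoter there, beside 3.45% of the tested genes with one. The 4 members of smallest p that hold it are given 5' to 3' on the gene's strand, with the core or its reverse complement in capitals. A match is a description of the sequence and does not show binding.
Ifitm3 (chr7:141010695-141010994, minus strand): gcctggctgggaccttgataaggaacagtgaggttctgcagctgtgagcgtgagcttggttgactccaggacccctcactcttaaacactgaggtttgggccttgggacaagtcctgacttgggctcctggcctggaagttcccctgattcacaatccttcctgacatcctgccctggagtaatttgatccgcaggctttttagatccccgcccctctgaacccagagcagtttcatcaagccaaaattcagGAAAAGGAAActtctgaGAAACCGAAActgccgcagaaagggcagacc
Cxcl10 (chr5:92348840-92349139, minus strand): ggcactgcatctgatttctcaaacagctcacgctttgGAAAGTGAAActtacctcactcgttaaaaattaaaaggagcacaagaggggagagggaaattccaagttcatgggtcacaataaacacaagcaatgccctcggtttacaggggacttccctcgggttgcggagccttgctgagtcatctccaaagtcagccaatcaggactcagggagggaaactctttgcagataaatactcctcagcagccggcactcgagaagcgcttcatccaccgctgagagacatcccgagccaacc
Ifit3 (chr19:34583279-34583578, plus strand): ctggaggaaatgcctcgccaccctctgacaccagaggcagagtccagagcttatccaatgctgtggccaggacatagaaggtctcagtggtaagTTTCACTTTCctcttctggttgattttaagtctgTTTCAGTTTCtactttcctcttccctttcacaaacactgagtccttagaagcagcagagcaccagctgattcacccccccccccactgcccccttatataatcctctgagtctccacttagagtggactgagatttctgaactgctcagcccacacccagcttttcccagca
Rsad2 (chr12:26456403-26456702, minus strand): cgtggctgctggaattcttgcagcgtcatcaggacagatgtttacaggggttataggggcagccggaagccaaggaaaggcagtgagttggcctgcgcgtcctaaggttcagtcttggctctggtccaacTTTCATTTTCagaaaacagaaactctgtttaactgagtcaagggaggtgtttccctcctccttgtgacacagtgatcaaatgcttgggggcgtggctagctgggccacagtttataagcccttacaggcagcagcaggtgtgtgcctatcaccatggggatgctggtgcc
The matches of Ifitm3 begin 2 bases after the start site, that of Cxcl10 at position -213 and those of Ifit3 at -156. The letters were not in the windows of Ifi35 and Oasl2, and Usp18 had no promoter among those searched.

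Most astrocyte genes were also lower in knockouts. Of 20 reactive astrocyte genes 18 were lower (median -0.44), 9 at an unadjusted p under 0.05 (45.0%, beside 5.15% of all genes). The lipid kinase Sphk1 had 1.67, 1.37, 1.12 and 1.48 RPKM in knockouts and 1.95, 1.84, 3.87 and 6.30 RPKM in heterozygotes (-0.79, SE 0.25, limma adjusted p = 0.292). Its groups did not overlap, with the male heterozygotes far above the rest. Osmr, a receptor for oncostatin M, was at -0.46 and the transcription factor Stat3 at -0.29. Gfap, the intermediate filament of reactive astrocytes named here as the best known member, had 4.22, 4.71, 9.54 and 31.3 RPKM in knockouts and 4.78, 14.9, 55.5 and 30.7 RPKM in heterozygotes (-1.01, SE 0.39, limma adjusted p = 0.393), and knockout replicate 4 lay among the heterozygotes. General astrocyte genes had 23 of 26 lower (median -0.23), with the membrane protein Mlc1 at -0.43, the folate enzyme Aldh1l1 at -0.28, the neurotensin receptor Ntsr2 at -0.45 and, in the other direction, the clotting initiator F3 at 1.02 (SE 0.32).

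Lysosomal genes had 29 of 34 lower with a median of -0.14, and 9 at an unadjusted p under 0.05 (26.5%, beside 5.15% of all genes). Lamp1, a coat protein of the lysosomal membrane, had 284, 273, 359 and 354 RPKM in knockouts and 379, 385, 397 and 406 RPKM in heterozygotes, without overlap (-0.31, SE 0.09, limma adjusted p = 0.264). Lamp2 was at -0.30 and the cholesterol-binding protein Npc2 at -0.41. In cholesterol and lipid handling 16 of 31 genes were lower (median -0.01). The lipid exporter Abca1 had 2.53, 3.44, 5.24 and 6.38 RPKM in knockouts and 4.08, 5.31, 11.8 and 10.7 RPKM in heterozygotes (-0.69, SE 0.14, limma adjusted p = 0.143), while Sqle, an enzyme of sterol synthesis, was at 0.50 (SE 0.13). For Abca1 the males were higher in each genotype and the groups overlapped. Clu, a lipid-carrying chaperone, was at -0.35.

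Endothelium and mural cell genes had 21 of 27 lower (median -0.15), 5 at an unadjusted p under 0.05 (18.5%, beside 5.15% of all genes), with the matrix protein Vtn of pericytes at -0.59, the endothelial proteins Bsg at -0.41 and Ly6c1 at -0.33, and the pericyte gene Higd1b at -0.64. Oligodendrocyte genes had 10 of 27 lower (median 0.07). Mag, an adhesion protein of myelin, had 57.2, 46.7, 54.7 and 44.9 RPKM in knockouts and 74.0, 67.5, 62.2 and 60.9 RPKM in heterozygotes, without overlap (-0.38, SE 0.11, limma adjusted p = 0.246). The myelin protein Mal was at 0.31, the carbonic anhydrase Car2 at 0.29 and the transcription factor Nkx6-2 at -0.37. Precursor genes had 7 of 12 lower (median -0.03) and proliferation genes 4 of 9 (median 0.05, with the survivin gene Birc5 at 0.40).

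Tissue at the border of a cortical dissection also differed between libraries. All 15 meninges and fibroblast genes were lower in knockouts (median -0.61), 8 at an unadjusted p under 0.05 (53.3%, beside 5.15% of all genes). Their summed level was 542, 660, 530 and 684 RPKM in knockouts and 550.5, 747, 1351 and 2049 RPKM in heterozygotes, so the male heterozygotes stood apart. Most of that sum, in every library, was Ptgds, a prostaglandin synthase secreted by the meninges and also made by oligodendrocytes. Ptgds had 458, 535, 449 and 571 RPKM in knockouts and 457, 632, 1169.5 and 1818 RPKM in heterozygotes (-0.82, SE 0.28, limma adjusted p = 0.334). Igf2 was at -0.76, the GABA transporter Slc6a13 at -0.73 and the collagen chain Col1a2 at -0.63. Col1a1, the defining marker fixed for meninges, was between 0.545 and 1.25 RPKM in knockouts and between 0.731 and 2.58 RPKM in heterozygotes. The part of meningeal RNA in the immune and astrocyte differences was not tested.

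Striatum genes were higher in knockouts in 19 of 19 cases (median 0.43), 2 at an unadjusted p under 0.05 (10.5%, beside 5.86% of all genes). Their summed level was 710, 1388, 2667 and 2489 RPKM in knockouts and 1078, 1732, 447 and 1991 RPKM in heterozygotes. Heterozygote replicate 3 held the least and the male knockouts the most, and the groups overlapped. Scn4b, a sodium channel subunit rich in striatum, had 26.9, 28.8, 90.1 and 49.3 RPKM in knockouts and 23.1, 23.5, 6.65 and 19.7 RPKM in heterozygotes (1.34, SE 0.45, limma adjusted p = 0.325), and the retinoic acid receptor Rarb was at 1.04. The dopamine receptor Drd1a, a defining marker, lay between 13.3 and 50.2 RPKM in knockouts and between 7.49 and 43.3 RPKM in heterozygotes, and Drd2 was at most 0.287 RPKM. Without heterozygote replicate 3 the median of the list turned to -0.13. Choroid plexus genes had 7 of 11 lower (median -0.12), with the sulfate transporter Slc13a4 at -0.91, and summed to 1189 RPKM in knockout replicate 1 and to between 169 and 768 RPKM in heterozygotes. Ependyma genes had 5 of 8 lower (median -0.15) and hippocampus genes 7 of 10 (median -0.12, with the synaptic organizer C1ql2 at 0.65).

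**Figure D4:**
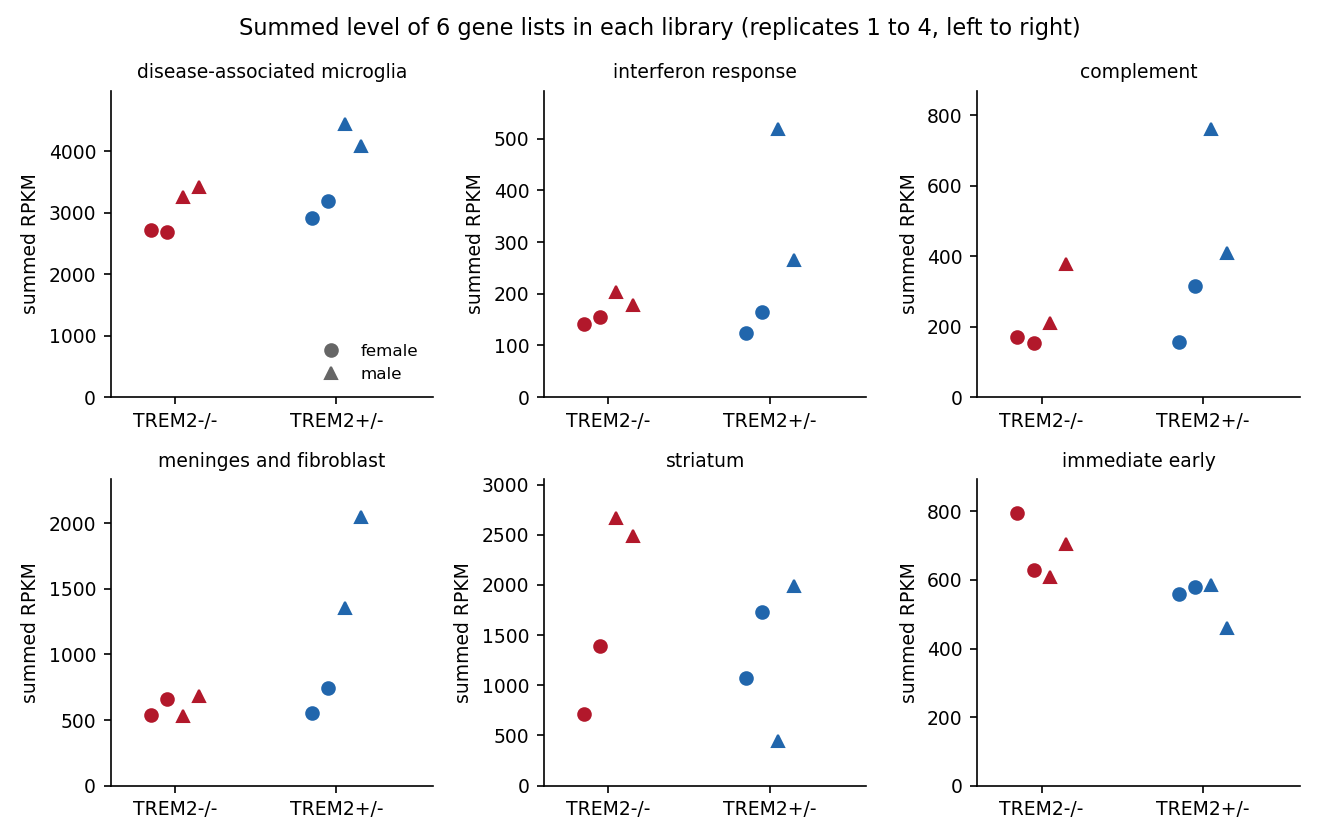
Summed RPKM of 6 gene lists (vertical axes) in each P301S+ TREM2-/- library on the left and each P301S+ TREM2+/- library on the right, with females as circles and males as triangles. The male heterozygotes are highest for disease-associated microglia, interferon, complement and meninges, up to 520 RPKM for interferon in replicate 3, and that library is lowest for striatum at 447 RPKM.

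Immediate early genes, which neurons switch on within minutes of activity, were higher in knockouts in 17 of 22 cases (median 0.23). At an unadjusted p under 0.05, 6 were higher (27.3%, beside 5.86% of all genes) and 0 lower, by limma, which called 0 of them after adjustment. Nr4a1, a nuclear receptor, had 42.6, 19.0, 12.2 and 24.1 RPKM in knockouts and 4.08, 8.20, 10.2 and 3.59 RPKM in heterozygotes (1.73, SE 0.38, adjusted p = 0.156). The groups did not overlap, with knockout replicate 3 close to heterozygote replicate 3. Arc, which controls receptor removal at synapses, had 35.4, 21.9, 14.6 and 28.1 RPKM in knockouts and 14.3, 17.3, 9.99 and 12.4 RPKM in heterozygotes (0.80, SE 0.21, limma adjusted p = 0.215). The transcription factor Egr1 had 295, 236, 255 and 248 RPKM in knockouts and 224, 208, 202 and 162 RPKM in heterozygotes, without overlap (0.38, SE 0.11, adjusted p = 0.261). The kinase phosphatase Dusp1 had 51.2, 35.9, 34.4 and 39.8 RPKM in knockouts and 30.0, 34.0, 28.9 and 27.5 RPKM in heterozygotes, again without overlap (0.40, SE 0.12). The cyclic AMP response element, through which many of these genes respond to activity, was searched as TGACGTCA, which is its own reverse complement, in the same windows. It was found in 2 of 18 list genes with a promoter, Dusp1 and Btg2, beside 3.83% of tested genes with one, and the difference of the cell cycle inhibitor Btg2 was 0.11. The window of Nr4a1 did not hold it, and Arc and Egr1 had no promoter among those searched. The Dusp1 promoter is shown with the element in capitals at position -143 from the start site.
Dusp1 (chr17:26508423-26508722, minus strand): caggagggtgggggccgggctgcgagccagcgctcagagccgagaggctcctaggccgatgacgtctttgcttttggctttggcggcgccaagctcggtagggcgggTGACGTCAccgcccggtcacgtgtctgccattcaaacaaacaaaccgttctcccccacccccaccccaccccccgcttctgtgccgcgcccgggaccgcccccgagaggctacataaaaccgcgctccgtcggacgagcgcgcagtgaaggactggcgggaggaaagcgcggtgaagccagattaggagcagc

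Neuronal genes showed no common direction. Excitatory neuron genes had 15 of 23 higher (median 0.12), with the exchange factor Rasgrf2 at -0.39 and the glutamate receptor subunit Grin2b at -0.40, and inhibitory neuron genes had 13 of 19 lower (median -0.10). Synapse genes divided evenly, 13 higher and 13 lower (median -0.004). Snap25, a component of the vesicle fusion machinery, had 1442, 1470, 1626 and 1008 RPKM in knockouts and 839, 944, 1065 and 652 RPKM in heterozygotes (0.66, SE 0.18, limma adjusted p = 0.234). Only knockout replicate 4 fell within the heterozygote range. The fusion ATPase Nsf was at 0.21 and the fusion regulator Cplx1 at -0.26.

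Genes of the mitochondrial respiratory chain had 16 of 29 higher (median 0.02). Ndufa1, a subunit of complex I, had 1135, 1149, 1157 and 983 RPKM in knockouts and 644, 753, 862 and 964 RPKM in heterozygotes, without overlap (0.47, SE 0.13, limma adjusted p = 0.231). Cox7c was at 0.63, Atp5j at 0.38 and the complex III protein Uqcrc1 at -0.38. Heat shock and unfolded protein genes had 17 of 29 lower (median -0.04), with the chaperones Hspa1a at 0.82 (SE 0.18, adjusted p = 0.154), Dnajb5 at 0.75, Canx at -0.29 and Calr at -0.24. Hspa1a shares near-identical sequence with its neighbour Hspa1b. Genes kept as signs of RNA quality had 7 of 10 higher (median 0.15), with the transcription factor Tbp at 0.48, and their summed level was between 3559 and 4942 RPKM in knockouts and between 4548 and 4968 RPKM in heterozygotes.

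The tau gene Mapt did not separate the groups. Mapt had 107, 97.1, 92.7 and 111 RPKM in knockouts and 107, 104, 103 and 92.6 RPKM in heterozygotes, and the groups differed by -0.002 on the log2 scale (SE 0.10, limma adjusted p = 0.997). The labels do not say whether the counting separates the transgene from mouse Mapt. In the other genotypes Mapt had 81.2 to 117 RPKM in P301S+ TREM2+/+ mice and 99.4 to 188 RPKM in non-transgenic mice. Prnp, the prion protein gene whose promoter is used in several tau lines, had 859, 782, 991 and 998 RPKM in knockouts and 990, 894, 1120.3 and 733 RPKM in heterozygotes (-0.03, SE 0.14, limma adjusted p = 0.958). Both genes overlapped between knockouts and heterozygotes. Prnp had 807 to 962 RPKM in P301S+ TREM2+/+ mice and 174 to 415 RPKM in non-transgenic mice. Whether reads of the transgene are counted in either gene was not tested. Among 29 genes of tau and its modifiers 20 were lower (median -0.06), 3 at an unadjusted p under 0.05 (10.3%, beside 5.15% of all genes), namely the kinases Mapk3 (-0.36) and Cdk5 (-0.39), which can phosphorylate tau, and the microtubule protein Map1a (-0.32).

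The sexes were compared within the same libraries, 2 mice per genotype and sex. No gene passed limma's interaction of genotype and sex (0 of 11989, lowest adjusted p = 0.689), while 829 (6.91%) had an unadjusted p under 0.05. In females the median of the disease-associated list was -0.12 and that of the interferon list 0.00, with 17 of 27 and 14 of 30 genes lower in knockouts. In males the medians were -0.71 and -0.85, with 23 of 27 and 29 of 30 lower. Over all genes the median was 0.01 with 48.6% lower in females, and -0.05 with 57.6% lower in males, so the female interferon count (46.7%) was near that of all genes. Clec7a differed by -0.32 in females and -2.51 in males, with an adjusted p of 0.689 for limma's interaction. The striatum list had medians of -0.48 in females and 1.39 in males with 10 of 19 genes at an unadjusted interaction p under 0.05. With 2 mice on each side, sex cannot be told apart from the single libraries described above, such as heterozygote replicate 3.

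**Figure D5:**
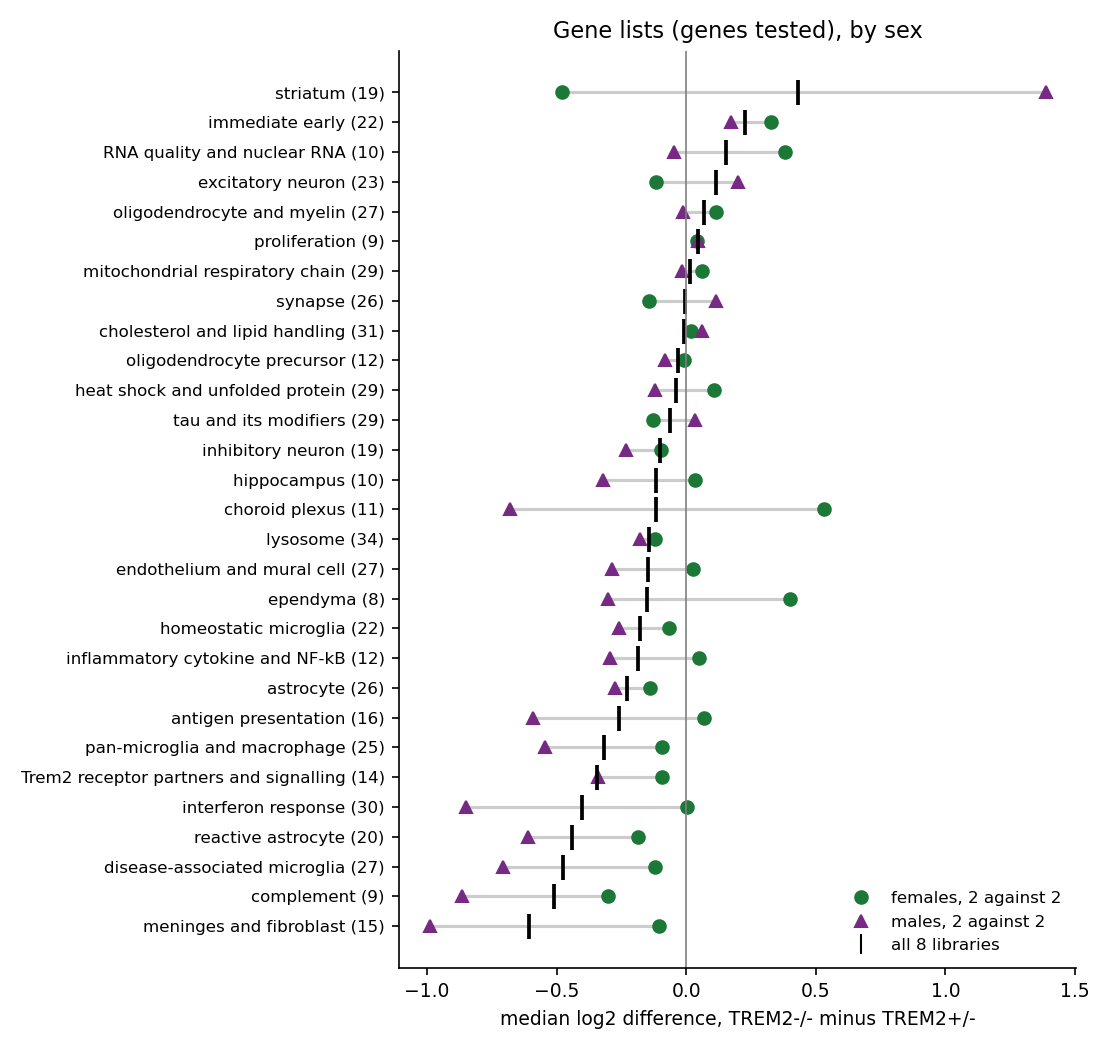
Median log2 difference, TREM2-/- minus TREM2+/- (horizontal axis), for each gene list with at least 8 genes tested (rows, number tested in brackets). Circles are the 2 against 2 females, triangles the 2 against 2 males and ticks all 8 libraries. The male median lies below the female one for the immune and astrocyte lists, at -0.85 against 0.00 for interferon, and above it for striatum.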

How the data were processed

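The members of this comparison and its gene lists (32 lists, 760 genes, 580 tested) were chosen with earlier results of these data known. Total RNA of cortex was made into 3' mRNA libraries and sequenced, per the labels' protocols. Per the submitters' processing notes, the tools included STAR, HTSeq, edgeR and limma and the build was mm10. The sources give neither their versions nor the strand used in counting, so overlapping genes cannot be separated. The deposited tables hold 1 value per gene. The authors' unit was taken to be RPKM from the values: within a gene all values were whole multiples of 1 read (100% of 18911 genes above 0, tolerance 1e-05 reads or a relative 3e-07), and the gene length this implies was within 2-fold of the annotated exon length for 77.9% of 17974 genes. RPKM of 3' reads does not compare genes with each other, so each gene was compared with itself across libraries. Of 24060 genes listed, those with a mean of at least 1 RPKM over the 8 libraries were tested with limma 3.58.1 (R 4.3.3, trend on) on log2(RPKM + 1), with genotype and sex in the model and Benjamini-Hochberg adjustment over 11989 genes at 0.05. Fold changes on this scale understate those of low genes. The interaction with sex used the same values. The files hold RPKM, so a count model was not the main test, and limma-voom on the recovered reads was an alternative. The steps were tested on simulated counts with the same dispersion setting for every gene and no outlying library. That test does not measure their error in these data. Lists are described by counts and medians, without a test. Named were Trem2, Tyrobp, Prnp and Mapt, the 12 genes of smallest p in each direction and up to 4 members of smallest p per list with an unadjusted p under 0.05; Clec7a, Cst7, Lyz2, P2ry12, Tmem119, Ccl5, Gfap, Ifit3, Cxcl10 and Rsad2 were added after their values were seen. Results of some genes that this rule names are not reported here. Replicates differed beyond sampling noise (chi-square of at least 6.87 per gene). Reads carry no molecular identifiers, so read numbers bound counting error only. Samples were grouped by the labelled genotype, and p-values measure the spread between these mice. Of the list genes, 13 were not found and 167 lay below the filter. A single line without a gene name was excluded.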

Additional observations from a re-analysis of the deposited data

Results flagged for a closer look

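Values of 1 mouse stood apart from the other 3 of its genotype by Dixon's test at the 95% level in 17 of the 282 groups examined, and chance flags about 1 in 20. Among knockouts, replicate 4 was highest for Trem2 (3.75 RPKM, the others at most 1.71), Cyba (11.3, at most 4.82) and Clec7a (1.24, at most 0.342), and lowest for Usp19 (25.8, the others at least 30.5), Sqle (18.4, at least 24) and Ndufa1 (983, at least 1135). In the same library the summed level of the Trem2 partner list was 283 RPKM and that of the astrocyte list 6748 RPKM, each above the other knockouts. Knockout replicate 2, the shallowest library, was highest for Amd1 (3.42 RPKM). Knockout replicate 1 was highest for Cplx1 (269 RPKM) and for the summed choroid plexus list (1189 RPKM, the others at most 295), and lowest for the RNA quality list (3559 RPKM, the others at least 4792).

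Among heterozygotes, replicate 3 was highest for Cops7a (29.9 RPKM, the others at most 13.5), F3 (5.40, at most 1.92), Ccl5 (21.4, at most 2.49) and the summed T and B cell list (24.8 RPKM, at most 6.17), which includes Ccl5 and without it summed to 3.39 RPKM, within the 2.31 to 3.68 RPKM of the others. Replicate 4 was highest for Dcxr (12.1 RPKM, the others at most 7.47). In 2 lists the mean log2 level of both knockouts of one sex lay above both heterozygotes, and that of the other sex lay below. This difference between the sexes was not tested. The median log2 differences were 0.11 in females and -0.12 in males for heat shock and unfolded protein genes, and 0.40 in females and -0.30 in males for ependyma genes.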

How the results depend on the processing

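No paired analysis was possible because the replicate numbers were given in accession order and pair no mice. The count of 1 gene called by limma was the same with pseudocounts of 0.1, 0.5 and 5, quantile normalization, median centring and robust empirical Bayes. It was 0 with no filter on low values, with all 16 libraries, in females only, in males only and with read depth as a covariate (chosen after seeing the data). It was 4 without the sex term, 5 at a mean RPKM of at least 5, 27 with voom on recovered reads, 49 with array weights and 104 with voom and quality weights. It was 53 after leaving out the shallowest knockout and the third heterozygote together (also chosen after seeing the data). Leaving out 1 mouse gave 0 to 133 genes, with 133 (127 higher, 6 lower) without heterozygote replicate 3, and 1 without knockout replicate 4, which was Nptx2 (2.25, adjusted p = 0.005) and not Flywch1. Over array weights, both voom fits and the fit without heterozygote replicate 3, 24 genes were called in all 4, 13 of them among the 24 named for the smallest p. These 4 settings refit the same mice and each called more genes than the main fit. Settings that called 0 or 1 were not among them, so neither overlap is independent support for these genes. The cause of the changes in the count was not tested. With 1 mouse left out, the read depth difference ranged from -4.37 to -2.23 M and the log2 ratio of Trem2 to Tyrobp reads from -1.999 to -1.59 (two-sided exact permutation p = 0.0571 in each fit of the ratio, the smallest that 3 against 4 allows). The sex interaction called 0 genes in every setting run. Near 0, signs turned. Prnp was at 0.0125 with quantile normalization, 0.0180 with array weights, 0.134 in males, 0.00187 with depth as a covariate, 0.154 without the pair of libraries, and from -0.188 to 0.0566 without 1 mouse. Mapt was at 0.00211 with median centring, 0.0295 with array weights, 0.0158 with voom and quality weights, 0.0487 in males, 0.0132 with depth as a covariate, 0.0722 without the pair of libraries, and from -0.0630 to 0.0389 without 1 mouse. C1ql2 was at -0.00334 in males. P2ry12 was at -0.0151 with depth as a covariate and from -0.00435 to 0.242 without 1 mouse. Ccl5 was at 0.12 in females and from -1.15 to 0.0186 without 1 mouse. Depth limits low genes, as 3 reads in the shallowest knockout correspond to 1.18 reads per 1e+06.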
